A study of Mus musculus with 31 samples.

Results

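Circulating white blood cells were compared with kidney in mice given lipopolysaccharide (LPS, a bacterial endotoxin) together with vehicle. The comparison held 6 of the 31 arrays of the series, 3 of blood and 3 of kidney, and no measured value was used to choose them. The blood group was the RNA labelled WBC from male C57BL/6J mice, 20 to 30 weeks old, that received LPS and vehicle. The kidney group was RNA from whole kidney homogenate of mice of the same strain, sex, age range and treatment. The series also measured liver, and in all organs the treatments LPS with IVIg (pooled immunoglobulin G for intravenous use) and LPS with a modified IVIg. No mouse without LPS was measured, so no value here is a response to LPS. It is a difference between blood and kidney of mice that had all received it. Nothing in the labels says whether a blood array and a kidney array with the same number came from the same mouse, or how white cells were separated from the rest of the blood. Nor do they say that arrays of a group were separate animals, and if they were not, the p-values below measure only technical spread.

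LPS is sensed by Toll-like receptor 4 with its co-receptors Cd14 and MD-2 (gene Ly96). The signal runs through the adaptor Myd88 to the transcription factor NF-kB, which switches on cytokines and chemokines, and through a second branch to interferons, which switch on antiviral genes. In blood the cells that answer first are neutrophils and monocytes, while in kidney the tubular epithelium and the endothelium respond beside resident macrophages. The kidney is mostly proximal tubule, which takes back phosphate, glucose and amino acids from the filtrate and burns fatty acids to do so. Blood also holds red cells and platelets, which keep abundant RNA from their precursors although they have no nucleus.

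Blood arrays detected far fewer probes than kidney arrays. At a detection p under 0.01 the blood arrays detected 4572, 4804 and 3384 of 25697 probes, against 10311, 10328 and 10042 on the kidney arrays. As shares of all probes these were 16.6 ± 2.96% in blood and 39.8 ± 0.624% in kidney (SD, n = 3 each). The groups did not overlap, and an exact two-sided permutation test gave p = 0.1, which is the smallest p that 3 against 3 arrays allow. By gene, 2404 of 16593 genes (14.5%) were detected on all 3 blood arrays and 6657 (40.1%) on all 3 kidney arrays, with 2114 detected on all arrays of both. After normalisation of the 6 arrays together, the lowest signal of a detected probe was at log2 7.30, 7.19 and 7.94 on the blood arrays and at 5.47, 5.46 and 5.53 on the kidney arrays. A gene that lies under these values in blood therefore had only an upper bound there. The part that detection depth takes in the organ differences below was not tested.

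**Figure D1:**
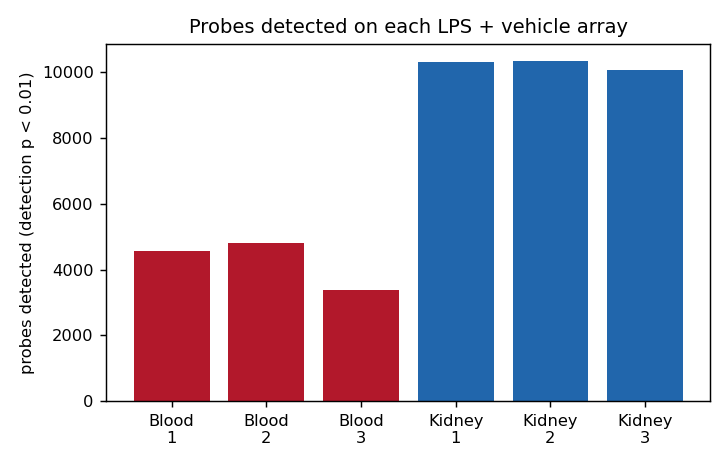
Number of probes with a detection p under 0.01 on each of the 3 blood and 3 kidney arrays of mice given LPS and vehicle. Every blood bar, from 3384 to 4804 probes, is below every kidney bar, from 10042 to 10328.

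Across the 7648 features kept by the detection filter, Pearson correlations were 0.889 to 0.925 between blood arrays and 0.939 to 0.988 between kidney arrays. They were 0.366 to 0.480 between a blood and a kidney array. Kidney replicate 3 stood apart in several genes given below, and so did kidney replicate 1 in adipocyte and haptoglobin transcripts. Of 2271 features detected on all 6 arrays, 53 were more than 1 log2 unit lower on both blood replicate 2 and kidney replicate 3 than on every other array of their groups. None of the other 8 pairs of a blood and a kidney array shared such a feature. Paip2, a regulator of the poly(A)-binding protein, had log2 12.66, 8.43 and 11.66 in blood, against 10.02, 10.02 and 5.88 in kidney. Of these 53 features, 41 did not pass the test, 12 were higher and 0 were lower in blood. Without both of those arrays 1421 of 1586 higher genes and 1442 of 1657 lower genes still tested had the same call, and 0 turned round.

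Of 7648 features tested with limma, 4499 passed a Benjamini-Hochberg adjusted p under 0.05, which is 58.8% of them. A feature is called higher or lower below only where its direction was measured. That means that it was detected in both groups, or that a bound on its fold was above 1. The bound sets the normalised mean of the detecting group against the lowest detected normalised signals of the other group. Where the gene's own signal there was higher, that signal was taken. Folds given below as at least a value are such bounds. They depend on the normalisation and are not bounds on bead signals. By this rule 1600 features (20.9%) were higher in blood, 1657 (21.7%) were lower in blood and 1242 (16.2%) passed without a measured direction. The 2 groups did not overlap in 5061 features (66.2%). With each array centred on the probes detected on all arrays, in place of quantile normalisation, the split was 1375 higher and 2634 lower. By fitted sign alone 1668 of the features that passed were above 0 and 2831 below. That is 37.1% above 0, against 39.1% with centring. The near balance of the called directions thus comes with the features left without one, of which 1174 were fitted below 0 and 68 above. The median log2 change of all features was -0.47, and it was -0.30 with that centring. Among the 2271 features detected on all 6 arrays it was 0.66, with 1034 higher and 384 lower. Counts of a gene list are to be read against these shares, and its median against -0.47. All 219 features detected on all 3 blood arrays and no kidney array were called higher. For a list gene of that class the call adds nothing to its detection pattern.

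A call of higher is relative to the rest of the array. Of the 1600 features called higher in blood, 1055 (65.9%) had a lower mean bead signal in blood than in kidney before background correction and normalisation. All 1657 features called lower had a lower bead signal too. None of the higher neutrophil, monocyte, T cell, platelet or red cell genes had its bead signals in the other order, and among general leukocyte genes Lcp1 and Hcls1 did, which is 2 of 15. It was so for 9 of 12 higher interferon-stimulated genes, 5 of 5 NF-kB genes, 3 of 4 Toll-like receptor genes, 3 of 3 class II genes and 6 of 8 ribosomal protein genes. A rise named in those lists is a rise of the gene's place among all signals of an array, which the files cannot turn into an amount of RNA.

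**Figure D2:**
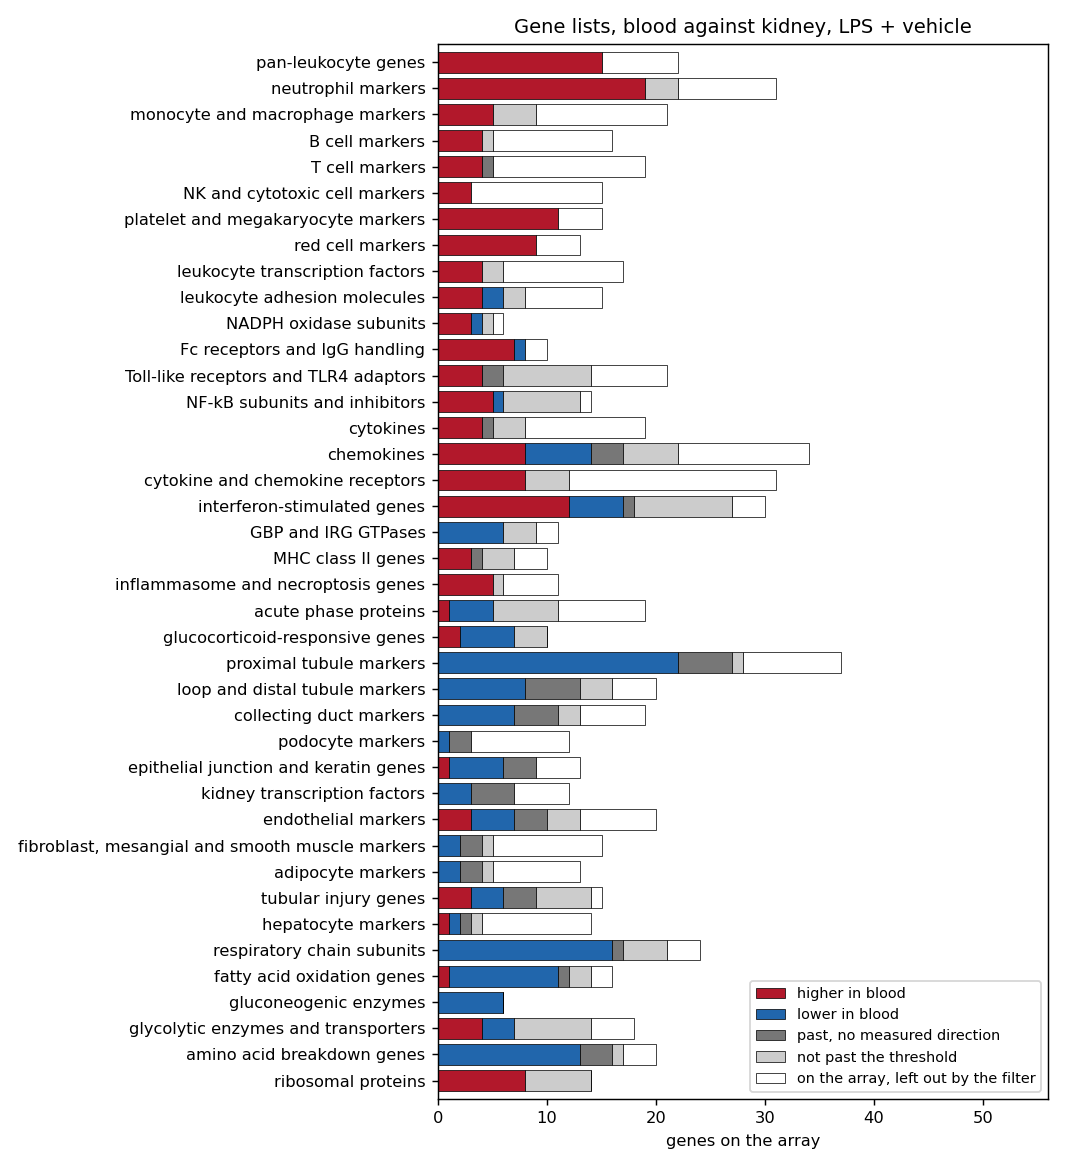
Gene lists by the outcome of the blood against kidney comparison in mice given LPS and vehicle. Bars count the genes of each list on the array, split into higher in blood, lower in blood, past the threshold without a measured direction, not past the threshold, and left out by the detection filter. Red cell (9 higher), platelet (11 higher) and general leukocyte genes (15 higher) have no lower member, and proximal tubule genes (22 lower) have no higher one.

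Leukocyte genes were higher in blood. All 15 tested genes that leukocytes share were higher, with a median log2 change of 4.75. Of these, 10 were detected on all 6 arrays. The summed linear signal of the 15 was 42400 to 66900 in blood and 1310 to 1420 in kidney. In bulk RNA, fewer cells of a type and less RNA per cell cannot be told apart. Laptm5, a lysosomal protein of blood cells, had log2 13.26, 13.92 and 14.07 in blood, against 7.60, 7.55 and 7.57 in kidney. Coro1a, an actin regulator of leukocytes, had 11.52, 12.82 and 11.92 in blood, against 6.35, 6.03 and 6.43 in kidney. Their changes were 6.17 ± 0.28 and 5.82 ± 0.37 (SE), with limma adjusted p of 3.71e-06 and 1.44e-05, and the groups of both genes lay far apart. Another 7 genes of this list did not pass the detection filter. Among these was Ptprc, which encodes the defining surface protein CD45 and was detected on 1 blood array and 0 kidney arrays, while the integrin chain Itgb2 was detected on 2 blood arrays. Most general leukocyte genes were thus found on all arrays of the RNA labelled WBC, while the probe of CD45 was found on 1 of them.

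Of 22 tested neutrophil genes, 19 were higher in blood, 0 were lower and 3 did not pass, with a median of 5.20. Only 7 of the 22 were detected on all 6 arrays. S100a8 and S100a9 encode the pair of proteins that makes up calprotectin. S100a8 had log2 14.60, 15.57 and 14.44 in blood, against 7.56, 7.54 and 7.67 in kidney, a rise of 7.28 ± 0.34 or 155-fold (limma adjusted p = 4.03e-06). S100a9 had 14.04, 14.72 and 14.30 in blood, against 8.15, 8.03 and 7.34 in kidney, a rise of 6.52 ± 0.32 (limma adjusted p = 5e-06). Every blood array was high and every kidney array was low for both. Granule proteins followed the same direction. Ltf (lactoferrin) was higher by 6.34 ± 0.47 and Camp (cathelicidin) by 6.36 ± 0.34. No kidney array detected Retnlg, a resistin-like protein, or the surface protein Cd177, which were at least 141-fold and at least 24.9-fold higher in blood. The receptor genes Cxcr2 and Csf3r, through which neutrophils are called in and are kept alive, were at least 23.2-fold and at least 22.3-fold higher, again with no detection in kidney.

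The 3 neutrophil genes that did not pass are ones that other cells are also known to make. Lcn2, the siderophore-binding lipocalin that injured tubules also secrete, had log2 13.91, 15.17 and 14.22 in blood, against 13.80, 13.63 and 15 in kidney. Its groups overlapped, and the change was 0.29 ± 0.48 (limma adjusted p = 0.623). Lrg1, a secreted glycoprotein of the acute phase, had 11.42, 12.42 and 12.59 in blood, against 12.70, 12.48 and 12.85 in kidney (change -0.53 ± 0.35, limma adjusted p = 0.229). Anxa1 (annexin A1) had a change of 1.03 ± 0.74 and was detected on 1 blood array and 2 kidney arrays. Elane and Padi4 were detected on no array of either organ.

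Monocyte and macrophage genes gave a mixed result, with 5 of 9 tested higher in blood, 0 lower, 4 not passed and a median of 2.70. That median was 1.87 without blood replicate 1 and 3.47 without blood replicate 3. F13a1, the factor XIII subunit that monocytes and platelets carry, had log2 11.31, 11.61 and 11.61 in blood, against 5.32, 5.18 and 5.63 in kidney, a rise of 6.13 ± 0.25. The lysozyme genes Lyz1 and Lyz2 were higher by 6.05 ± 0.27 and 5.87 ± 0.93, although near-identical copies such as these may share probe signal. Cd14, the LPS co-receptor, had 10.33, 11.47 and 10.07 in blood, against 11.82, 11.40 and 13.38 in kidney, with 1 kidney array far above the rest. Its change of -1.58 ± 0.59 did not pass (limma adjusted p = 0.0507). The transcription factor gene Irf8 did not pass either (-0.30 ± 0.45). Ccr2 and Cx3cr1, the chemokine receptors that mark classical and patrolling monocytes in mice, were detected on no array.

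Most lymphocyte genes that were tested were higher in blood, but most of those on the array could not be tested. Of 16 B cell genes on the array 5 were tested, and 4 of these were higher. The other, Blnk, did not pass (-0.35). Ly6d was called higher by 2.82, with bead signals that averaged lower in blood. Cd79a and Cd79b, the signalling chains of the B cell receptor, were higher by 3.46 ± 0.25 (at least 6.63-fold) and 4.42 ± 0.33. Ms4a1 (CD20), Cd22 and Pax5 were detected on no array. Of 19 T cell genes on the array 5 were tested, and 4 were higher. The other, Bcl11b (0.91), passed without a measured direction. Cd3d, a chain of the T cell receptor complex, had log2 7.78, 8.73 and 9.03 in blood, against 5.12, 4.93 and 4.99 in kidney, and no kidney array detected it (at least 8.15-fold). Cd8b1 was higher by 3.64 ± 0.32, while Cd4, Cd8a and Cd28 were detected on no array. The 3 tested genes of natural killer and cytotoxic cells were all higher, among them Nkg7 (4.16 ± 0.51) and the pore-forming protein gene Prf1 (3.80 ± 0.62). Low signal on the blood arrays limits what can be said of lymphocytes, since a floor near log2 7 hides weak transcripts.

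Red cell and platelet genes had the largest median rises of the 40 lists. All 9 tested red cell genes and all 11 tested platelet genes were higher, with medians of 6.11 and 7.81. Of these, only 5 red cell genes and 2 platelet genes were detected on all 6 arrays. Summed linear signals of the red cell genes were 186000 to 209000 in blood and 8220 to 13900 in kidney, and those of the platelet genes were 69800 to 118000 in blood and 553 to 572 in kidney. Set beside them, the neutrophil genes summed to 99400 to 194000 in blood and 19800 to 41600 in kidney. The RNA labelled as white cells thus carried strong red cell and platelet signals, whose part in the other differences was not tested.

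Alas2, the first and rate-setting enzyme of haem synthesis in red cell precursors, had log2 15.61, 15.74 and 15.76 in blood, against 6.88, 7.19 and 6.94 in kidney. Its rise was 8.70 ± 0.23, or 416-fold (limma adjusted p = 6.33e-07), the first by size among genes detected on all 6 arrays. Its bead signals in blood, 58153.7, 53214.4 and 55634.2, lay near the highest of those arrays, 60972.8, 56102.6 and 55839.6, so the fold and its rank are those of a probe close to the top of the scale. Slc4a1, the band 3 anion exchanger of the red cell membrane, had 15.43, 15.33 and 15.53 in blood, against 6.74, 7.04 and 6.71 in kidney, a rise of 8.60 ± 0.23. For both genes the arrays of each organ lay close together and the organs far apart. No kidney array detected Hbq1a, a globin-like gene, or Trim10, a red cell ubiquitin ligase, and they were at least 441-fold and at least 314-fold higher in blood. Hba-a1 (alpha globin) was measured in both organs, with 15.41, 15.76 and 15.80 in blood, against 12.78, 13.35 and 13.70 in kidney. Its bead signal of 55839.6 on blood replicate 3 was the highest of that array, so its rise of 2.37 ± 0.30 comes from a probe at the top of the scale and gives no rank. Globin copies cannot be told apart with certainty by their probes. Ube2o, a ubiquitin ligase that clears proteins from maturing red cells, was higher by 8.28 ± 0.23.

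The promoter of Alas2 is shown because of the rise just given and because red cell genes are known targets of GATA1. The sequence is the 250 bases before the gene start in RefSeq, build GRCm38.p6, at chrX:150547167-150547416 on the plus strand. The motif AGATAA was searched on both strands, and its match, here on the reverse strand, is in capitals. Of 27025 promoters of this length 2771 (10.3%) hold it, so the match is a description and not a site. Among other promoters searched, that of Trim10 holds it and that of Hbq1a does not. Those of S100a9 and Cxcl10, which are not red cell genes, hold it too.
Alas2: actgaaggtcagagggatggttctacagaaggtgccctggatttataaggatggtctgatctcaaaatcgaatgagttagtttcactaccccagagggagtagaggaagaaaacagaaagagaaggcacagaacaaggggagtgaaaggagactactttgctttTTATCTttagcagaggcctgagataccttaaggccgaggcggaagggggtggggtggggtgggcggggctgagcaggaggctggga

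Ppbp and Pf4 encode the chemokines Cxcl7 and Cxcl4 that platelets store in their granules. Ppbp had log2 13.92, 13.75 and 13.41 in blood, against 4.86, 4.84 and 5.08 in kidney, where no array detected it, so the rise was at least 295-fold (limma adjusted p = 6.6e-07). Pf4 had 14.30, 12.96 and 14.56 in blood, against 5.92, 6.26 and 4.88 in kidney, a rise of 8.26 ± 0.52. The blood arrays were high without exception for both. The von Willebrand receptor on platelets has the chains Gp5, Gp9 and Gp1bb, which were at least 195-fold, 157-fold and 122-fold higher, and Treml1, a granule membrane protein, was at least 232-fold higher. Alox12, the platelet lipoxygenase, rose by 7.24 ± 0.24. Among blood cell transcription factors, Nfe2 and Tal1, known from megakaryocytes and red cell precursors, were at least 115-fold and at least 13-fold higher in blood. Klf2, a factor that keeps leukocytes quiescent, was higher by 2.95 ± 0.35 with bead signals that averaged lower in blood, and 2 of the 6 tested members of that list, Cebpb (-0.75 ± 0.47) and Irf8, did not pass.

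Most Toll-like receptor genes and adaptors did not pass, which does not show that the organs were equal. Of 14 tested Toll-like receptor genes and adaptors, 4 were higher in blood, 0 lower, 8 did not pass and 2 passed without a measured direction. Their median was 0.24, and it was -0.07 with centring, so the list has no settled side. Myd88, the shared adaptor, had log2 11.06, 12.19 and 11.02 in blood, against 11.27, 11.35 and 11.71 in kidney, a change of -0.02 ± 0.37 (limma adjusted p = 0.969). Tlr2, the receptor for bacterial lipopeptides, had 9.58, 10.29 and 9.40 in blood, against 9.05, 9.39 and 9.55 in kidney (0.43 ± 0.31, limma adjusted p = 0.274). Both genes had overlapping groups. Tlr4 itself was detected on 1 blood array and 2 kidney arrays, with a change of 1.26 ± 0.44 at an adjusted p of 0.0417, which any array left out except blood replicate 3 took to between 0.0692 and 0.155. Irak3, the inhibitor of the pathway in myeloid cells, had 9.94, 11.32 and 9.62 in blood, against 7.41, 8.32 and 7.96 in kidney, a rise of 2.40 ± 0.48. Tlr13, a receptor for bacterial ribosomal RNA, was detected on no kidney array and was at least 12.2-fold higher. Ly96 was higher by 1.41 ± 0.36, a call that centring removed (0.79, limma adjusted p = 0.0787).

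NF-kB genes showed a similar spread, with 5 of 13 tested higher in blood, 1 lower and 7 not passed (median 0.57). The inhibitor Nfkbia had log2 10.32, 11.18 and 10.22 in blood, against 8.31, 8.68 and 9.42 in kidney, a rise of 1.77 ± 0.39. Nfkbib (2.08 ± 0.28), Tnip1 (1.99 ± 0.35) and Ikbkg (1.73 ± 0.32), which hold the pathway back or carry its signal, were higher too. The subunit gene Rela had 9.33, 9.99 and 9.65 in blood, against 10.87, 10.87 and 11.32 in kidney, and was lower by -1.36 ± 0.28 (limma adjusted p = 0.0042). Tnfaip3 and Nfkbiz, both induced by NF-kB, did not pass (0.57 ± 0.44 and 0.44 ± 0.42). The fifth higher gene, Bcl3, lost its call when any array except blood replicate 3 was left out, with adjusted p of 0.0788 to 0.106.

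Of 8 tested cytokine genes, 4 were higher in blood, 0 lower, 3 did not pass and 1 had no measured direction. With centring 5 were higher and 3 were lower. The median of 2.23 was the same with centring and was 0.56 without blood replicate 2. Il1b, the interleukin that inflammasomes mature, had log2 11.19, 12.81 and 11.12 in blood, against 6.95, 6.05 and 6.68 in kidney. Its rise was 5.15 ± 0.50, or 35.5-fold (limma adjusted p = 0.000114). Il1rn, the antagonist of its receptor, had 11.22, 12.31 and 11.18 in blood, against 6.62, 6.67 and 6.82 in kidney, a rise of 4.87 ± 0.35. Signal and antagonist were thus both high on every blood array. Ifng, the interferon made by natural killer and T cells, had 8.26, 10.62 and 9.11 in blood, against 5.98, 5.70 and 5.90 in kidney (3.47 ± 0.56). Tgfb1, which platelets also carry, was at least 14.3-fold higher. Il15, Il18 and Il33 did not pass (-0.57 ± 0.36, 0.99 ± 0.51 and -0.75 ± 0.30). Tnf was detected on 1 array of each organ and Il6 on 0 blood and 2 kidney arrays, so neither was tested.

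Chemokines divided between the organs. Of 22 tested, 8 were higher in blood, 6 were lower, 5 did not pass and 3 had no measured direction. The median of 0.25 turned to between -0.14 and -0.45 when any array other than kidney replicate 2 was left out, so the list has no side. Cxcl2 and Cxcl1, both ligands of the neutrophil receptor Cxcr2, lay on opposite sides. Cxcl2 had log2 10.75, 12.01 and 12.45 in blood, against 7.66, 7.73 and 9.06 in kidney, a rise of 3.59 ± 0.55 (limma adjusted p = 0.00104). Cxcl1 had 9.46, 10.32 and 10.27 in blood, against 12.85, 13.03 and 13.86 in kidney, and was lower by -3.23 ± 0.37 (limma adjusted p = 0.000271). Neither pair of groups overlapped. In the fit that also held the IVIg arrays, Cxcl1 had the adjusted p 0.0719.

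The ligands of Cxcr3, which interferon-gamma induces, were lower in blood. Cxcl10 had log2 10.93, 11.67 and 9.33 in blood, against 14.04, 14.02 and 14.83 in kidney, a difference of -3.65 ± 0.59 that was -2.76 without blood replicate 3. Cxcl9 had 8.80, 10.11 and 9.05 in blood, against 9.95, 11.74 and 12.09 in kidney. Its groups overlapped, and its difference of -1.94 ± 0.61 (limma adjusted p = 0.0279) had limma adjusted p of 0.0848 to 0.106 without kidney replicate 2 or 3 or blood replicate 1 or 3. Cx3cl1 (fractalkine, a membrane-bound chemokine of endothelium and epithelium) and Cxcl12 were detected on no blood array and were at least 3.40-fold and at least 1.45-fold lower. Cxcl16 was lower by -1.38 ± 0.45, with adjusted p of 0.0647 to 0.0976 once kidney replicate 1 or 3 or blood replicate 1 or 2 was left out. The CC chemokines that passed with a direction were all on the blood side. Ccl25 and Ccl27a passed without a measured direction, with fitted changes of -1.16 and -2.38, on the kidney side. Ccl4 had 11.33, 13.12 and 11.51 in blood, against 8.93, 9.05 and 8.49 in kidney, a rise of 3.16 ± 0.49. Ccl3, Ccl9, Ccl12 and Ccl5 rose by 2.95 ± 0.41, 3.72 ± 0.60, 3.72 ± 0.59 and 2.09 ± 0.44, of which Ccl5 had bead signals that averaged lower in blood. Ccl2, Ccl7, Ccl11 and Ccl19 did not pass, with changes of -0.33 ± 0.30, 0.70 ± 0.46, 1.06 ± 0.48 and -0.20 ± 0.32.

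Most of the CXC genes lie together on chromosome 5, in the RefSeq order Cxcl5, Ppbp, Pf4, Cxcl3, Cxcl15, Cxcl1 and Cxcl2, followed at a distance by Cxcl9, Cxcl10, Cxcl11 and Cxcl13. The organ difference changed sign between neighbours there. Ppbp and Pf4 were higher in blood, Cxcl1 (chr5:90891245-90893121) was lower, its neighbour Cxcl2 (chr5:90903899-90905938) was higher, and Cxcl9 and Cxcl10 were lower. Cxcl5, Cxcl3, Cxcl15 and Cxcl11 did not pass the detection filter, and Cxcl13 was tested without passing (1.17 ± 1.11). The promoters of Cxcl2 and Cxcl1 are shown because these neighbours had opposite differences. Both are the 250 bases before the start in GRCm38.p6, on the plus strand, at chr5:90903649-90903898 and chr5:90890995-90891244. Capitals mark an NF-kB motif spelled GGGA, any base, TTTCC, searched on both strands, which 91 of 27025 promoters (0.337%) hold.
Cxcl2: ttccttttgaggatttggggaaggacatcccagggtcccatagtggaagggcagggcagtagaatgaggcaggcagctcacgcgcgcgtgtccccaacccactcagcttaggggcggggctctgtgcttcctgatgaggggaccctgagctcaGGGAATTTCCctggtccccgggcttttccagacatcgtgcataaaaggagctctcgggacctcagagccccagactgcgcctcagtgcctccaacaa
Cxcl1: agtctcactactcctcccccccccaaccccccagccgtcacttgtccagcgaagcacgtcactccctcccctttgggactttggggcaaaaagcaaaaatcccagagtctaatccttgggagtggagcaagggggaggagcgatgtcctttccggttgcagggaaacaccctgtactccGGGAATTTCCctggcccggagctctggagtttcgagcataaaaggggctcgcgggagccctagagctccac
The same letters stand 97 bases before the start of Cxcl2 and 71 bases before that of Cxcl1. The same stretch of Il1b, higher in blood, and of Cxcl9, lower in blood, holds no such match. This describes the sequences and says nothing of which factor was bound in either organ.

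**Figure D3:**
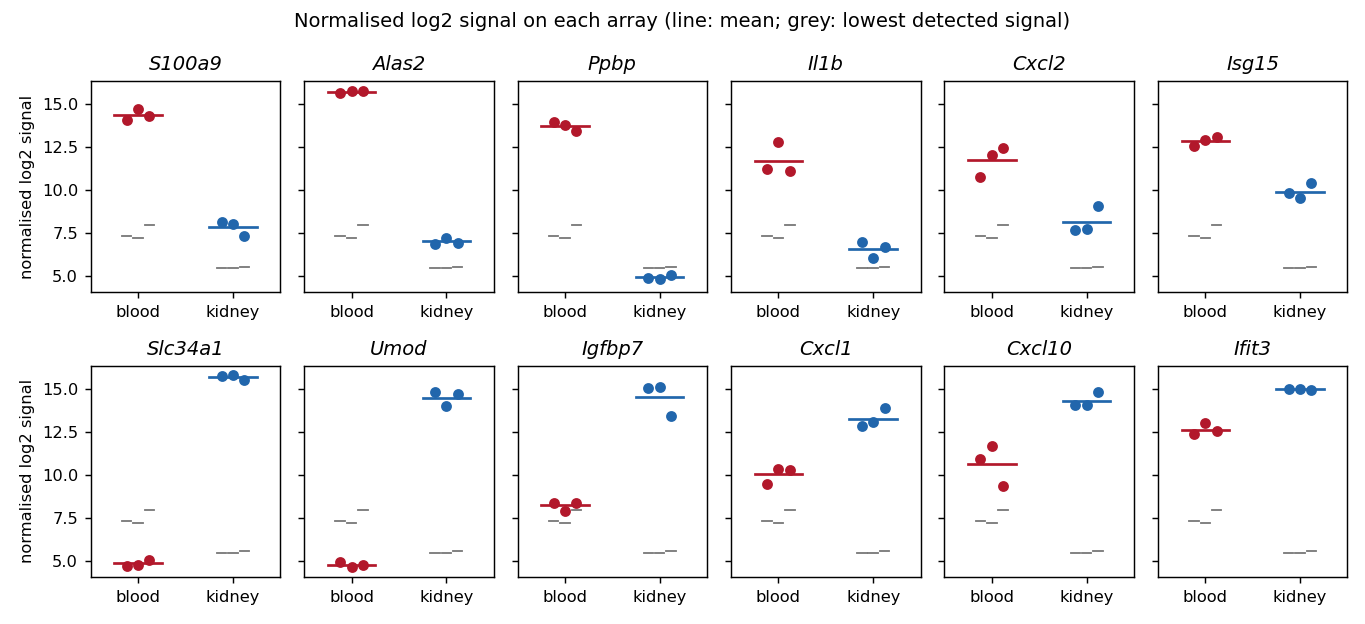
Normalised log2 signal of 12 genes on each of the 3 blood and 3 kidney arrays of mice given LPS and vehicle, with lines at the means and grey ticks at the lowest detected signal of each array. Blood points lie above kidney points for S100a9, Alas2, Ppbp, Il1b, Cxcl2 and Isg15 and below them for Slc34a1, Umod, Igfbp7, Cxcl1, Cxcl10 and Ifit3, with blood under its floor for Slc34a1 and Umod.

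Receptors for these signals were higher in blood in 8 of 12 tested genes, with 0 lower and 4 not passed (median 2.15). Il1r2, the decoy receptor for interleukin 1, had log2 11.59, 12.16 and 12.08 in blood, against 5.40, 5.59 and 5.23 in kidney, a rise of 6.54 ± 0.26. It was detected on 1 kidney array. Cxcr5, the B cell homing receptor, was at least 8.21-fold higher. Ifnar2 and Csf2ra, chains of the interferon and GM-CSF receptors, were called higher by 1.69 ± 0.29 and 2.74 ± 0.39, with bead signals that averaged lower in blood. Tnfrsf1a, Il6st, Il10rb and Ifngr1 did not pass, with changes from -0.97 to 0.86.

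Of 8 tested genes of Fc receptors and their signalling and handling partners, 7 were higher in blood and 1 was lower (median 3.22). With centring 6 were higher, 1 was lower and 1 did not pass. The higher ones without centring include Fcmr, a receptor for immunoglobulin M, the phosphatase gene Inpp5d and the cytosolic antibody receptor gene Trim21. The change of Trim21 was only 0.78, and its bead signals were 227.1, 238.7 and 140.5 in blood, against 850.5, 800.2 and 1125.1 in kidney. Fcgr4 had log2 12.48, 13.95 and 13.20 in blood, against 8.37, 8.48 and 8.80 in kidney, a rise of 4.66 ± 0.39. Fcer1g, the signalling chain it shares with other activating receptors, had 13.13, 13.94 and 13.49 in blood, against 7.66, 7.56 and 7.80 in kidney (5.85 ± 0.28). Fcgr3 was at least 20.2-fold higher, and the inhibitory receptor Fcgr2b was higher by 2.28 ± 0.56. Activating and inhibitory receptors were both called higher, although the bead signals of Fcgr2b averaged lower in blood. Fcgrt, the neonatal receptor that recycles immunoglobulin G, went the other way, with 5.81, 7.22 and 6.04 in blood, against 10.95, 10.71 and 10.82 in kidney (-4.47 ± 0.39, limma adjusted p = 6.66e-05).

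The phagocyte oxidase had 3 subunits higher in blood, of which Ncf1 (at least 8.13-fold) and Ncf4 (at least 51.1-fold) were detected on no kidney array. Nox4, the oxidase of tubular cells, had log2 4.53, 4.90 and 4.66 in blood, against 10.79, 10.83 and 10.33 in kidney, and was at least 9.01-fold lower in blood. Cyba, the chain that both oxidases use, had 10.98, 12.06 and 11.70 in blood, against 12.19, 12.19 and 12.16 in kidney. Its difference of -0.60 ± 0.32 did not pass (limma adjusted p = 0.142). Of 6 tested inflammasome and necroptosis genes 5 were higher in blood and 1, Mlkl, did not pass (0.17 ± 0.38). Casp1, which matures interleukin 1 beta, had 10.41, 11.69 and 9.89 in blood, against 6.42, 6.79 and 6.70 in kidney, a rise of 4.03 ± 0.46. The pore protein gene Gsdmd and the LPS-sensing caspase gene Casp4 were higher by 2.96 ± 0.28 and 2.68 ± 0.44, both with bead signals that averaged lower in blood. Mefv (pyrin) was at least 11.5-fold higher, and Pycard (0.94 ± 0.32) lost its call without any 1 array except blood replicate 1, at adjusted p of 0.0605 to 0.143.

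Adhesion genes lay on both sides. Selplg, the selectin ligand on leukocytes, had log2 10.12, 11.28 and 10.34 in blood, against 5.68, 5.57 and 5.86 in kidney (4.88 ± 0.34), and Cd44 rose by 3.44 ± 0.24. Icam1, the ligand on activated endothelium, had 9.13, 9.92 and 10.04 in blood, against 11.21, 11.04 and 11.30 in kidney, and was lower by -1.48 ± 0.30. Vcam1 was detected on no blood array and was at least 3.06-fold lower. Selp (P-selectin), which both platelets and endothelium store, was higher in blood by 3.16 ± 0.57. Icam2, an adhesion molecule of endothelium and platelets, was called higher by 1.68 ± 0.29, although its bead signals were 145.5, 136.6 and 139 in blood, against 251.2, 231.3 and 294.3 in kidney. In all, 4 of 8 tested were higher, 2 were lower and 2 did not pass, with a median of 1.29 that was 0.60 without blood replicate 3 and 2.07 to 2.10 without kidney replicate 1 or 2. Of 7 tested class II antigen presentation genes 3 were higher in blood, 0 lower, 3 did not pass and 1 had no measured direction. Cd74, the invariant chain, had 11.17, 10.80 and 10.35 in blood, against 8.66, 8.89 and 9.32 in kidney (1.82 ± 0.31). H2-Eb1 was higher by 1.92 ± 0.32, and the call of H2-Ab1 (0.87 ± 0.30) was kept only without blood replicate 3 among the 6 fits that leave out 1 array, the others having adjusted p of 0.0625 to 0.125.

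Interferon-stimulated genes were high in both organs and differed gene by gene. Of 27 tested, 12 were higher in blood, 5 were lower, 9 did not pass and 1 had no measured direction, with a median of 0.60. Their summed linear signal was 112000 to 143000 in blood and 101000 to 127000 in kidney. Isg15, a ubiquitin-like protein, had log2 12.58, 12.91 and 13.06 in blood, against 9.81, 9.52 and 10.38 in kidney, a rise of 2.95 ± 0.30 (limma adjusted p = 0.000145). Irf7, the factor that amplifies interferon production, had 12.23, 12.32 and 12.99 in blood, against 9.83, 9.41 and 9.97 in kidney (2.78 ± 0.30). Oas1g and Oas2, enzymes that sense double-stranded RNA, rose by 2.95 ± 0.30 and 2.53 ± 0.33, with the reservation that copies of the Oas1 family are near-identical. Oas3 was detected on no kidney array and was at least 17.4-fold higher. Rsad2 (viperin) had 15.33, 15.43 and 15.17 in blood, against 13.38, 13.88 and 14.14 in kidney (1.51 ± 0.27). Each of these genes had separate groups.

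The Ifit genes ran the other way. Ifit3 had log2 12.34, 12.98 and 12.51 in blood, against 15, 15 and 14.93 in kidney, a difference of -2.37 ± 0.26 (limma adjusted p = 0.000196). Ifit2 had 10.61, 11.06 and 9.62 in blood, against 13.54, 13.29 and 14.38 in kidney (-3.30 ± 0.45). Both encode proteins that bind viral RNA, and both were lower on every blood array than on any kidney array. Parp14 was also lower (-1.90 ± 0.39), as was Mx2 (-1.02 ± 0.25, or limma adjusted p = 0.0547 in the fit with the IVIg arrays). Samd9l was lower by -1.18 ± 0.35, but its adjusted p was 0.0598 to 0.0862 without kidney replicate 1 or 3 or blood replicate 1 or 3 and 0.177 with centring. Usp18, Irf9, Oasl2, Cmpk2 and Ifitm3 did not pass, with changes from 0.18 to 0.82.

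The promoters of Isg15 and Ifit3 are shown because 2 interferon-stimulated genes with the same kind of element had opposite differences. They are the 250 bases before the start in GRCm38.p6, at chr4:156200819-156201068 on the minus strand and chr19:34583279-34583528 on the plus strand. Capitals mark the core of the interferon response element, spelled GAAA, any 2 bases, GAAA, and searched on both strands. It is found in 821 of 27025 promoters (3.04%), and the matches in Isg15 overlap one another.
Isg15: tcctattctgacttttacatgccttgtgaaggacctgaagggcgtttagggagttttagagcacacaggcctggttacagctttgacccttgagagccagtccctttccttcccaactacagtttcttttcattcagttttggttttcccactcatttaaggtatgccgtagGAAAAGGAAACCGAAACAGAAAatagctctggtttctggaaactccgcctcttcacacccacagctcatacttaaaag
Ifit3: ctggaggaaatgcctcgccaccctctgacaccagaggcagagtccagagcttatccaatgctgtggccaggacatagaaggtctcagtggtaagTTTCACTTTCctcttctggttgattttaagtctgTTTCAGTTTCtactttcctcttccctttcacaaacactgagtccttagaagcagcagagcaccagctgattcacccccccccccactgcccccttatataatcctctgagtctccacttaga
Isg15 holds 3 overlapping matches on its own strand, and Ifit3 holds 2 on the reverse strand. The same stretch of Irf7, higher in blood, and of Ifit2, lower in blood, holds none.

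The interferon-gamma inducible GTPases were lower in blood. Of 9 tested GBP and IRG genes, 0 were higher, 6 were lower and 3 did not pass, with a median of -1.68. Irgm1 had log2 12.89, 13.40 and 12.85 in blood, against 15.31, 15.20 and 15.37 in kidney, a difference of -2.25 ± 0.25 (limma adjusted p = 0.000228). Gbp3 had 9.81, 10.45 and 9.24 in blood, against 12.57, 12.38 and 12.88 in kidney (-2.78 ± 0.35). Gbp2, Irgm2, Gbp5 and Igtp were lower by -1.83 ± 0.34, -2.37 ± 0.38, -1.68 ± 0.29 and -1.22 ± 0.28. These proteins attack membranes around microbes inside cells, and their groups were separate in all 6 genes that passed. With centring in place of quantile normalisation only 3 of the 9 were lower and the median was -0.32, since Gbp2 (-0.06), Igtp (-0.15) and Irgm1 (-0.49) no longer passed. Gbp7, Ifi47 and Tgtp1 did not pass (0.24 ± 0.40, 0.40 ± 0.70 and 0.53 ± 0.37), and Ifi47 had 9.89 on kidney replicate 3, against 12.48 on each of the other kidney arrays. Ifng itself was higher in blood, as given above.

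**Figure D4:**
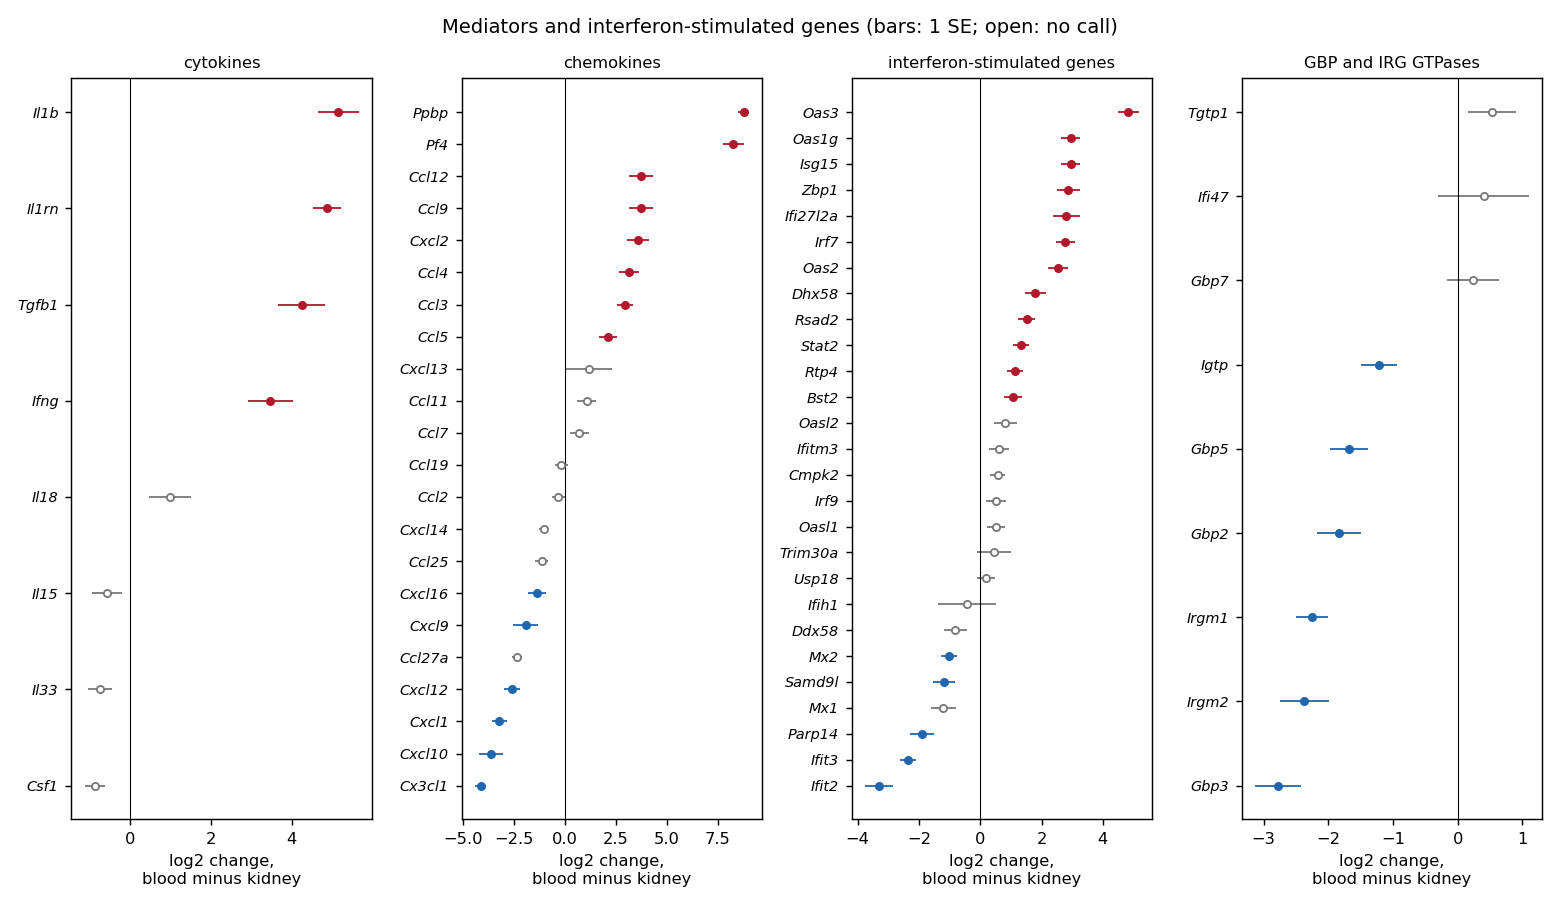
Log2 change of blood minus kidney in mice given LPS and vehicle for tested cytokines, chemokines, interferon-stimulated genes and GBP and IRG GTPases, with bars of 1 SE and open points for genes without a call. Il1b (5.15), Cxcl2 (3.59) and Isg15 (2.95) lie to the right of 0, and Cxcl1 (-3.23), Cxcl10 (-3.65), Ifit3 (-2.37) and Irgm1 (-2.25) to the left.

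Acute phase genes were measured in both organs in part. Of 11 tested, 1 was higher in blood, 4 were lower and 6 did not pass, and the median of -0.53 was 0.07 with centring. Saa3, the serum amyloid made outside the liver, had log2 13.15, 14.47 and 13 in blood, against 10.11, 11.33 and 11.39 in kidney, a rise of 2.60 ± 0.51. Fga and Fgg, chains of fibrinogen, were detected on no blood array. Fga had 4.93, 5.35 and 6.66 in blood, against 15.37, 15.15 and 15.53 in kidney, and was at least 234-fold lower in blood, while Fgg was at least 40.8-fold lower. Hp (haptoglobin) had 12.61, 14.30 and 13.21 in blood, against 8.21, 12.45 and 12.20 in kidney. Replicate 1 was low among the kidney arrays, and the change of 2.42 ± 1.10 did not pass (limma adjusted p = 0.0952). Orm1 (2.65 ± 0.99) did not pass either, with 4.89 on kidney replicate 1 against 9.03 and 8.24 on the others. Serpina3n was lower by -2.71 ± 0.84, but its adjusted p was 0.0584 to 0.0866 without kidney replicate 2 or 3 or blood replicate 1 or 2.

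Genes that glucocorticoids induce were lower in blood in 5 of 10 tested, higher in 2 and not past the threshold in 3 (median -1.07). Sgk1, a kinase that raises sodium uptake, had log2 7.74, 8.23 and 6.65 in blood, against 11.03, 11.50 and 12.53 in kidney (-4.15 ± 0.52). Klf9 had 9.27, 9.25 and 9.06 in blood, against 12.53, 12.79 and 12.46 in kidney (-3.40 ± 0.23). Fkbp5 was lower by -2.50 ± 0.55. Tsc22d3 (GILZ) was higher in blood, with 11, 11.56 and 10.93 in blood, against 8.76, 8.87 and 8.68 in kidney (2.40 ± 0.26, with bead signals lower in blood), and the decoy receptor Il1r2 was the other higher member. The metallothionein gene Mt1 was lower by -2.21 ± 0.26, a call that centring removed (-0.12, limma adjusted p = 0.732).

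Nephron genes were lower in blood wherever they were called. Of 28 tested proximal tubule genes, 0 were higher, 22 were lower, 1 did not pass and 5 had no measured direction, with a median of -4.63. Their summed linear signal was 5240 to 6690 in blood and 209000 to 276000 in kidney. Slc34a1, the sodium phosphate cotransporter of the brush border, had log2 4.69, 4.77 and 5.05 in blood, against 15.71, 15.77 and 15.49 in kidney. No blood array detected it, and it was at least 290-fold lower (limma adjusted p = 5.68e-07). Cyp2e1, which oxidises small molecules, was at least 202-fold lower, and the androgen-regulated protein gene Kap at least 162-fold lower. Slc27a2, which takes up fatty acids, and the organic anion transporter gene Slc22a6 were at least 153-fold and at least 60.5-fold lower. Only 2 of the 28 were detected on all blood arrays. Napsa, an aspartic protease, had 9.71, 11.13 and 10.02 in blood, against 14.60, 14.18 and 14.78 in kidney (-4.23 ± 0.40). Aqp1, the water channel that red cells also carry, had 11.72, 11.33 and 12.18 in blood, against 13.37, 12.92 and 12.19 in kidney (-1.09 ± 0.38). Kidney replicate 3 was low for the acyl-CoA synthetase gene Acsm2, with 6.55 against 12.02 and 12.28, for Mep1a, with 10.02 against 13.69 and 13.43, and for Kap, with 13.42 against 15.51 and 15.53.

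The promoter of Slc34a1 is shown because this gene had the largest bound on the kidney side. It is the 250 bases before the start in GRCm38.p6, at chr13:55399398-55399647 on the plus strand. Capitals mark GTTAAT, the core of the motif of HNF1, a factor of the proximal tubule, searched on both strands. The letters are found in 1762 of 27025 promoters (6.52%). Here there are 2 matches, 89 bases before the start on the reverse strand and 61 bases before it on the forward strand. The same stretch of Kap, another proximal tubule gene, holds none.
Slc34a1: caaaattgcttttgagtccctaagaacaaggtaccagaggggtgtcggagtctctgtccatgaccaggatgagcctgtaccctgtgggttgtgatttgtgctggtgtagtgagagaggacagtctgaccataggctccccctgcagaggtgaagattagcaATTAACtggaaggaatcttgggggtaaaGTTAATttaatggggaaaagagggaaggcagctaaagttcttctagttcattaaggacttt

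Later segments gave weaker contrasts. Of 16 tested genes of the loop and distal tubule, 8 were lower in blood, 0 higher, 3 did not pass and 5 had no measured direction (median -1.89). Umod (uromodulin, the protein of the thick limb) had log2 4.90, 4.61 and 4.75 in blood, against 14.78, 13.97 and 14.67 in kidney, and was at least 127-fold lower. Egf and Slc12a1, the thick limb salt transporter, were at least 31.1-fold and at least 17.8-fold lower. Of 13 collecting duct genes 7 were lower, 0 higher, 2 did not pass and 4 had no direction (median -1.85). Their bounds were small because kidney signals were modest, as for the sodium channel chains Scnn1b (at least 1.85-fold) and Scnn1g (at least 1.97-fold). Aqp2, the water channel set by vasopressin, did not pass (-0.67 ± 0.34). Of 3 tested podocyte genes Podxl was at least 1.07-fold lower and the other 2 had no measured direction. Junction genes were clearer, with Cdh16 (the kidney cadherin) at least 88.0-fold and Cldn2 (a claudin of the proximal tubule) at least 33.2-fold lower. In the same list 1 gene of 9 was higher, Cldn7 (0.89 ± 0.24), whose adjusted p was 0.0782 without kidney replicate 1 and 0.0687 without kidney replicate 2. With centring Cldn7 did not pass (limma adjusted p = 0.0783), and 0 genes of the list were higher. It did not pass on the IVIg arrays either (0.55 ± 0.29, limma adjusted p = 0.12). Of 7 tested kidney transcription factors 3 were lower, Irx3 (at least 4.12-fold), Pax8 (at least 1.35-fold) and Hnf4a. Hnf4a was detected on all 6 arrays, with 8.39, 7.78 and 8.81 in blood, against 9.95, 10.37 and 9.59 in kidney (-1.64 ± 0.35).

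Endothelial genes lay on both sides, with 3 of 13 tested higher in blood, 4 lower, 3 not passed and 3 without a direction. The higher ones are also known from platelets. Vwf had log2 12.50, 12.09 and 13.78 in blood, against 4.76, 5.09 and 5.39 in kidney, where no array detected it (at least 158-fold). Pecam1 and Esam were called higher by 2.59 ± 0.37 and 2.57 ± 0.33, with bead signals that averaged lower in blood. Robo4 and Egfl7, known from endothelium, were detected on no blood array and were at least 2.64-fold and at least 1.13-fold lower. Flt1, a receptor for VEGF, was lower by -2.0 ± 0.64, but of the 6 fits without 1 array only the one without blood replicate 3 kept the call, the others having limma adjusted p of 0.0765 to 0.105. Emcn was at least 2.10-fold lower, with limma adjusted p of 0.0875 to 0.105 without kidney replicate 2 or 3 or blood replicate 1 or 2. Of 5 fibroblast and smooth muscle genes 2 were lower, Acta2 and Mgp. Acta2 lost its call without kidney replicate 2 or 3 or blood replicate 1 or 3 (limma adjusted p of 0.0729 to 0.111). Mgp lost it without kidney replicate 2 or 3 or blood replicate 1 or 2 (limma adjusted p of 0.0584 to 0.0737). Adipocyte genes moved with kidney replicate 1. Adipoq (adiponectin) had 4.94, 6.59 and 6.42 in blood, against 6.32, 10.03 and 8.98 in kidney, and did not pass (-2.46 ± 0.93). Lpl (lipoprotein lipase), which tubules also make in mice, was high on every kidney array, with 7.31, 8.61 and 8.0 in blood, against 13.82, 14.38 and 13.97 in kidney (-6.08 ± 0.37).

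Tubular injury genes were tested in 14 members, of which 3 were higher in blood, 3 lower, 5 not passed and 3 without a direction. The higher members were Cd44, Timp1 (1.39) and Cst3 (0.79), the last 2 with bead signals that averaged lower in blood. With centring 3 were higher and 6 were lower. Igfbp7, a secreted binding protein of stressed tubules and of endothelium, had log2 8.36, 7.90 and 8.37 in blood, against 15.04, 15.07 and 13.38 in kidney. Its difference of -6.29 ± 0.48, or 78.2-fold, was the largest fall among genes detected on all 6 arrays (limma adjusted p = 3.41e-05), and it was -7.17 without kidney replicate 3. Havcr1 (KIM-1) had 5.26, 4.98 and 5.05 in blood, against 7.55, 6.44 and 8.38 in kidney, values that lie near the floor of the blood arrays. Clu (clusterin), Cdkn1a, Socs3 and Hmox1 did not pass, with changes from -0.82 to -0.08. Of 4 tested hepatocyte genes 1 was higher in blood, 1 was lower, 1 did not pass and 1 had no measured direction. Ttr was at least 30.6-fold lower in blood. Arg1 was called higher by 2.54, with bead signals that averaged lower in blood. Alb was detected on no array of either organ.

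The energy metabolism of the 2 samples differed in breadth. Of 21 tested respiratory chain subunits, 16 were lower in blood, 0 were higher, 4 did not pass and 1 had no direction (median -2.06). Ndufv1, a subunit of complex I, had log2 9.12, 9.79 and 10.27 in blood, against 12.91, 13.02 and 13.12 in kidney (-3.29 ± 0.33). Atp5b, the catalytic subunit of ATP synthase, had 13.76, 14.00 and 14.09 in blood, against 15.61, 15.67 and 15.71 in kidney (-1.71 ± 0.23). Of the 4 that did not pass, Atp5a1, Cox6c, Cox7a2 and Ndufb5 were each lowest on blood replicate 2 and on kidney replicate 3. Atp5a1 had 10.45, 5.23 and 9.93 in blood, against 12.89, 12.93 and 7.10 in kidney. Without both of those arrays 20 of 22 tested subunits were lower and 1 did not pass.

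Of 14 tested fatty acid oxidation genes 10 were lower in blood and 1 was higher (median -3.32). Acadm, the medium-chain dehydrogenase, had log2 7.79, 7.68 and 7.22 in blood, against 14.30, 14.14 and 14.76 in kidney (-6.84 ± 0.28, limma adjusted p = 2.42e-06). Cpt2 and Acadvl, which bring long chains into the mitochondrion and start their breakdown, were at least 15.2-fold and at least 10.7-fold lower. The higher member was Crat (carnitine acetyltransferase), with 11.09, 9.63 and 11.02 in blood, against 8.02, 7.86 and 8.07 in kidney (2.60 ± 0.41, with bead signals that averaged lower in blood). All 6 gluconeogenic genes were lower, Fbp1 by at least 23.5-fold and the glucose-6-phosphatase gene G6pc by at least 9.35-fold. Pck1 had 5.16, 6.22 and 4.59 in blood, against 10.78, 11.01 and 6.78 in kidney, and its adjusted p was 0.0555 without kidney replicate 1 and 0.0540 without kidney replicate 2. Of 17 amino acid breakdown genes 13 were lower and 0 higher (median -4.48), led by the tyrosine pathway gene Fah (at least 109-fold). Aldh6a1, of valine breakdown, had 4.89, 4.67 and 4.73 in blood, against 13.52, 13.78 and 8.97 in kidney, again with replicate 3 low.

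Glycolysis gave a different picture, with 4 of 14 tested genes higher in blood, 3 lower, 7 not passed and a median of 0.01. Slc2a3, the high-affinity glucose transporter of leukocytes and platelets, had log2 12.29, 12.04 and 12.38 in blood, against 5.44, 5.30 and 5.66 in kidney, a rise of 6.77 ± 0.24. Pkm had 12.02, 12.48 and 12.69 in blood, against 9.80, 9.72 and 10.17 in kidney (2.50 ± 0.28, with bead signals that averaged lower in blood), and Pfkfb4 rose by 3.24 ± 0.23. Ldha was lower in blood by -1.71 ± 0.35. Gapdh, often used as a constant, had 12.03, 12.78 and 13.07 in blood, against 13.64, 13.58 and 13.64 in kidney. Its difference of -0.99 ± 0.31 was 0.04 with centring and did not pass there (limma adjusted p = 0.934), so it has no settled side. Ribosomal protein genes were higher in blood in 8 of 14 and lower in 0, with a median of 0.85. Rplp0 had 9.42, 8.80 and 8.86 in blood, against 6.35, 6.21 and 6.43 in kidney (2.69 ± 0.26), while Rpl3 and Rps20 did not pass (-0.52 ± 0.27 and -0.56 ± 0.28).

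Outside the lists, the largest rises among genes detected on all 6 arrays, beside Ube2o given above, were Tfdp2 (7.52 ± 0.39), Atp2a3 (7.49 ± 0.40), Ube2l6 (7.49 ± 0.31), Smox (7.22 ± 0.39) and Dhrs11 (7.06 ± 0.22). Atp2a3 is the calcium pump of platelets and lymphocytes, and Ube2l6 is the enzyme that attaches Isg15 to proteins. Ube2l6 had log2 14.33, 13.90 and 13.82 in blood, against 6.15, 6.4 and 7.04 in kidney. The largest falls beside Igfbp7 and Lpl were Akr7a5 (-5.36 ± 0.41), Dbi (-4.84 ± 0.35), Aldh4a1 (-4.82 ± 0.31), Nceh1 (-4.82 ± 0.24), Tmem176b (-4.64 ± 0.42), Retreg1 (-4.59 ± 0.28), Hibadh (-4.48 ± 0.36) and Ndrg1 (-4.37 ± 0.29). Dbi, an acyl-CoA binding protein, had 10.30, 11.57 and 10.65 in blood, against 15.67, 15.61 and 15.74 in kidney. Among genes without any detection in kidney, the bounds beside those given lay between 180-fold and 192-fold for Diaph3, Ptp4a3, Slc38a5 and the platelet receptor gene Mpig6b. Among genes without any detection in blood they were at least 210-fold for Ugt3a2, 185-fold for Spink1, a trypsin inhibitor, and 168-fold for Keg1.

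The arrays of mice given LPS and IVIg offer the same comparison in other samples, with 3 blood and 4 kidney arrays normalised on their own. There 1639 of 7796 features (21%) were higher in blood and 1683 (21.6%) were lower. Of 1533 features that were higher with vehicle and tested with IVIg, 1366 (89.1%) were higher again and 0 were lower. Of 1657 that were lower with vehicle, 1419 (85.6%) were lower again and 0 were higher. Across 7451 features the log2 changes of both comparisons correlated at 0.974, which describes features that share probes and array type. The means with IVIg were 15.82 in blood and 7.26 in kidney for Alas2, and 12.35 in blood and 8.05 in kidney for Cxcl2. Isg15 was higher again (2.37 ± 0.34), Ifit3 lower again (-2.24 ± 0.19), and Slc34a1 was again detected on no blood array. Cxcl1 had a mean of 8.85 in blood and 12.39 in kidney, but its difference of -3.54 ± 1.60 did not pass (limma adjusted p = 0.0799), and Gbp5 did not pass either (-0.91 ± 0.78). Hp and Orm1, which vehicle arrays left undecided, were higher in blood with IVIg, Hp by 4.83 ± 0.29 and Orm1 without detection on any kidney array.

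**Figure D5:**
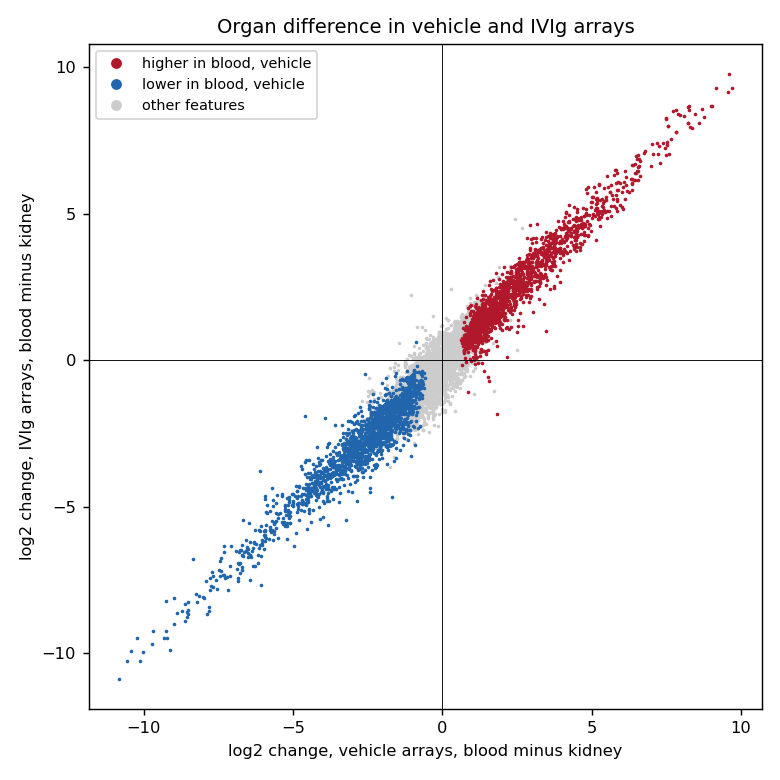
Log2 change of blood minus kidney for each feature tested with both treatments, IVIg arrays (3 blood, 4 kidney) on the vertical axis and vehicle arrays (3 blood, 3 kidney) on the horizontal axis. Points called higher or lower in blood with vehicle are coloured, and none of them was called the opposite way with IVIg, with a correlation of 0.974 across 7451 features.

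A fit of the 4 groups together tested whether the difference between blood and kidney itself differed between IVIg and vehicle. Of 8669 features, 1 passed an adjusted p under 0.05 (0.0115%), the cardiac actin gene Actc1, and 242 (2.79%) had an unadjusted p under 0.05. Of 485 list genes 0 passed. The fitted value for Actc1 was -2.87 ± 0.35 (limma adjusted p = 0.0208). Its probe was detected on 0 blood and 0 kidney arrays with IVIg, and on all 3 blood and 0 kidney arrays with vehicle, so only the vehicle blood level was measured and the fitted value is not a measured fold. Of the fits without 1 array, those without blood vehicle replicate 2 or 3 or blood IVIg replicate 2 or 3 kept this call, and the 9 others had limma adjusted p of 0.0512 to 0.136, with values from -2.71 to -3.22 over all of them. The next 4 features by p-value, which did not pass, were Bcl2l13 (-1.90 ± 0.29, limma adjusted p = 0.109), Crbn, Hdhd5 and Tnnc1. A p that misses the threshold does not show that the organ difference was the same under both treatments.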

How the data were processed

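Total RNA was hybridised to Illumina mouse bead arrays, 1 per sample. The authors deposited, for all arrays, non-normalised bead intensity values per probe, each with a detection p-value, per the file headers. The authors also deposited a matrix of log2 values that, per the series' design text, had been scaled organ by organ, by a method not given in the sources used here. The submitters' processing notes name GenomeStudio 1.9.0, lumi and limma. Intensities of the 6 vehicle arrays were background corrected with nec (detection p-values, offset 16) and quantile normalised on the log2 scale in limma 3.58.1 (R 4.3.3). Probes with detection p under 0.01 on at least 3 arrays were kept, and each gene took its probe of highest mean, giving 7648 features. Symbols came from the platform annotation (23978 probes had 1 symbol, 0 several, 1719 none). All features were fitted with lmFit and eBayes, with Benjamini-Hochberg adjustment at 0.05. Named genes outside the lists are the 10 with the largest change in each direction and detection class, and list genes were taken by call and size of change. The comparison and the gene lists were chosen with earlier results of these data known. The IVIg arrays were normalised on their own, and all 4 groups together for the difference of differences. Alternatives were no background correction, centring, other filters, the mean over probes, the authors' values, a replicate block and each array left out. Leaving out blood replicate 2 with kidney replicate 3, and leaving out 1 array with the filter held at 3 arrays, were chosen after seeing the data, as was the look at the order of bead signals. The limma fit was tested on simulated data and the direction rule on made values. Background correction, normalisation and the detection filter were not tested in this way. The number of arrays limits the precision, and near-identical copies (Lyz, Hba, Hbb, Oas1, Saa) may share signal.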

Additional observations from a re-analysis of the deposited data

Results flagged for a closer look

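The blood minus kidney difference of Actc1, which encodes the actin of heart muscle, had a fitted difference between treatments of -2.87 ± 0.35 on the log2 scale (limma adjusted p = 0.0208). It was the only feature to pass this test of the difference itself. The probe was detected on 0 of 3 blood arrays with IVIg and on all 3 blood arrays with vehicle, and on no kidney array of either treatment. Before normalisation its bead signals were 100.1, 104.4 and 102.6 in blood with IVIg, against 156.8, 123.6 and 145.7 in blood with vehicle. The kidney arrays had 132.2, 131.7, 113.6 and 131.4 with IVIg, against 123, 103.3 and 123.3 with vehicle, all of them undetected. With 3 of the 4 groups under detection, the fitted value is not a measured fold. The call was lost with centring (-0.76, limma adjusted p = 0.941) and with the replicate block (-2.83, limma adjusted p = 0.195). Its cause was not tested.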

How the results depend on the processing

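Over 23 alternatives, 197 of 231 named genes and list leaders kept fitted sign and an adjusted p under 0.05 in every fit that was run. Of the others, 34 lost that adjusted p in at least 1 fit. Only Gapdh reversed in sign, at 0.04 with centring (-0.99 as reported). These counts did not ask whether the direction was still a measured one, so they can exceed the number of calls kept. Restricting the test to features detected on every array gave 1491 past the threshold and 413 lower with vehicle, and 1471 past, 1071 higher and 400 lower with IVIg. Centring gave 2634 lower with vehicle and 2777 lower with IVIg. Leaving out 1 array gave 3697 to 4971 past, 1408 to 1667 higher and 1392 to 1698 lower with vehicle, and 4790 to 5634 past with IVIg. With the filter held at 3 arrays, chosen after seeing the data, these were 1815 to 4627 past, 1225 to 1396 higher and 590 to 1729 lower. The low ends of the counts past the threshold and lower come by construction, since without a kidney array a gene found only in kidney cannot reach 3 arrays (1850, 1815 and 1980 past, and 596, 590 and 636 lower, without kidney replicate 1, 2 and 3). For the difference of differences, centring, detection on every array and the replicate block each gave 0 features in limma, and leaving out 1 array gave 0 to 16, the highest without blood IVIg replicate 2. A detection p under 0.05 gave means of 6692 probes on blood and 11700 on kidney arrays. Same-numbered blood and kidney arrays correlated at 0.280, -0.385 and -0.160 in their deviations from the group means. With 3 arrays per group these deviations are tied to one another, so they cannot show whether the numbers pair the samples. The replicate block gave 4134 features past the threshold with vehicle and 4502 with IVIg. Weak signal limits the blood arrays most, where a gene under the lowest detected signal has only a bound.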

Other observations

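Several genes of heart and skeletal muscle were looked at after the values of Actc1 were seen, so they were chosen with their values known. Of 14 such genes, 5 (Actc1, Myl2, Myl3, Myl4 and Mb) were detected on all 3 vehicle blood arrays and on no vehicle kidney array. Mb (myoglobin) had bead signals of 238.1, 238.2 and 797.6 in vehicle blood before normalisation. Myl2 and Myl3, light chains of cardiac and slow muscle myosin, had 177.8, 208 and 444 and 219.7, 259.1 and 515.4 there. In these 3 genes blood replicate 3 was highest. Before normalisation Myl4 had bead signals of 156.4, 143.1 and 140.7 in vehicle blood, against 172.5, 149.4 and 165 in vehicle kidney, so its direction comes only with background correction and normalisation. After normalisation they were at least 18.7-fold (Mb), 12.4-fold (Myl2), 16.2-fold (Myl3) and 5.29-fold (Myl4) higher in blood than in kidney. Tnni3, Nppa, Ckm and Tnnt3 were detected on none of these arrays. Other muscle genes were not confined to blood. With vehicle, Tnnc1 was detected on 1 blood and 3 kidney arrays, Myl1 on 0 blood and 2 kidney arrays, and Cox6a2 on all 3 of each. Myh6 was detected on 1 vehicle blood array and Acta1 on 1 IVIg blood array, and neither on a kidney array. The source of these transcripts was not tested.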
